A study of Mus musculus with 24 samples.

Results

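Arginine is the shared substrate of nitric oxide synthases and arginases, and mouse macrophages regulate both enzymes strongly when activated. Nitric oxide synthase makes nitric oxide and citrulline, and the citrulline can be turned back into arginine. Arginase makes urea and ornithine, from which polyamines and proline are built. The genes described here are 8 of the 24537 in each table, taken as the rows whose symbol matched a fixed list. They are Slc7a2, which encodes a cationic amino acid transporter that imports arginine, Nos2 (inducible nitric oxide synthase) and Gch1 (GTP cyclohydrolase, the rate-limiting enzyme for the synthase's cofactor tetrahydrobiopterin). Ass1 and Asl encode argininosuccinate synthase and lyase, which remake arginine from citrulline. Arg1 and Arg2 encode the cytosolic and the mitochondrial arginase, and Odc1 encodes ornithine decarboxylase, the first step of polyamine synthesis.

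Their RNA was measured in macrophages grown for 7 days with 20 ng/mL M-CSF, a macrophage growth factor, from leg bone marrow of 8-week-old female C57BL/6J mice. Cells received LPS (lipopolysaccharide, a bacterial cell wall component) together with 4-OHE1 (4-hydroxyestrone, a catechol metabolite of the estrogen estrone), LPS alone, 4-OHE1 alone, or vehicle (control; ethanol in the file headers). Each treatment was sequenced at 6 h and at 24 h in 3 libraries, giving 8 groups and 24 libraries. For LPS the protocol states 100 ng/mL and for 4-OHE1 5 mM as final doses, but it gives the stocks, diluted 1 to 1000, at those same concentrations, so the doses are uncertain. Whether the libraries of a group came from different mice or cultures is not stated, and p-values therefore measure the spread between libraries, which may be technical.

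Libraries held 8127155 to 13339193 reads, and levels are FPKM (reads normalised to transcript length and library depth), with no scaling between libraries. All 7 macrophage markers present averaged at least 1 FPKM in every group, and of 32 markers of other cell types, 8 reached 1 FPKM in the mean of at least 1 group. The highest group means among these 8 were 4.84 FPKM for Camp (neutrophils), 2.47 for Xcr1 (dendritic cells), 2.10 for Kit (mast cells), 1.93 for Col1a1 (stromal cells) and 1.09 for Cd79b (B cells), while the highest was 0.664 FPKM among T cell markers, for Lck, and 0.206 FPKM among those of red cells, for Hba-a1. The third LPS+4-OHE1 library of 6 h stood apart, with a first principal component score of 4.27, against 19.4 and 18.3 in the other two, 90.6 to 91.7 in LPS libraries and -58.4 to -57.9 in control libraries. Differences are log2 differences of FPKM + 0.5 with their SE, tested with limma over every gene that reached 1 FPKM in 3 libraries or more. The threshold for a call was an adjusted p (Benjamini-Hochberg) below 0.05. Unscaled, the median log2 difference of all tested genes was -0.61 at 6 h and -0.31 at 24 h for LPS against control, with medians of -0.21 and 0.05 for 4-OHE1 alone and of 0.18 and 0.17 for LPS+4-OHE1 against LPS. Median-of-ratios scaling, which assumes that most genes did not change, was therefore run beside each test. It is given where it changed a call of the 8 genes, and counts over lists of other genes are also given for calls made under both scalings. At 6 h LPS gave 1792 higher and 7563 lower genes unscaled, and 4037 higher and 3893 lower with scaling.

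Among the 8 genes, RefSeq's GRCm38.p6 promoter table held those of Ass1, Odc1 and Gch1, read here for 250 bases before the start site. Ass1 and Gch1 are shown because LPS raised both while 4-OHE1 moved them in different ways when added to it. The Ass1 promoter is at chr2:31470020-31470269 on the plus strand, and its capitals mark an E-box (CACGTG) at -36 to -31. The Gch1 promoter is at chr14:47189414-47189663 on the minus strand, written in the direction of the gene. Its capitals mark a TATA box (TATAAA) on the reverse strand at -188 to -183 and, at -10 to -1, a match to the kappaB motif that reads on both strands.
Ass1: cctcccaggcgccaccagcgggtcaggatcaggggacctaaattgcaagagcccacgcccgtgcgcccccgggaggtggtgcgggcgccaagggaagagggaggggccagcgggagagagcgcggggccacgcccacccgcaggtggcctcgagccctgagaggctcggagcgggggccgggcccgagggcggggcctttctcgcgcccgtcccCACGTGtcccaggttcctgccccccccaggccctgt
Gch1: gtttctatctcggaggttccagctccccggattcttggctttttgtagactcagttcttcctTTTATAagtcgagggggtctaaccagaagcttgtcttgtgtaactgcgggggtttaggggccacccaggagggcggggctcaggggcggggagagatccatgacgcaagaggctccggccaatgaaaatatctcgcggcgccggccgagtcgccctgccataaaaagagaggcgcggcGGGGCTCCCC
Among 32841 mouse promoters of this length, 6.02% held the E-box, 12.4% the TATA box and 7.25% the kappaB motif on either strand. GAS (TTCNNNGAA), ISRE, STAT6-type GAS, AP-1 (TGANTCA), antioxidant response element core (TGACNNNGC) and ATF4 with C/EBP (TGATGNAA) motifs had no match in the 3 promoters. Of all promoters, 7.02% held GAS, 2.98% ISRE, 5.85% the STAT6 type, 6.75% AP-1, 10.2% the antioxidant response element core and 3.45% the ATF4 motif. Odc1 held none of the 9 motifs searched. Matches are descriptions of these letters and not binding sites.

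Adding 4-OHE1 to LPS lowered some arginine genes and raised others. Nos2 and Slc7a2, the enzyme that uses arginine to make nitric oxide and the transporter that LPS raised, were far lower in LPS+4-OHE1 than in LPS libraries at both times. Odc1 was higher at both times, Ass1 was higher at 24 h, and Gch1 was lower by less than a log2 difference of 1. Of the 7 genes tested at 6 h, 3 were above and 3 below their LPS level in LPS+4-OHE1 libraries, where 42.7% of all tested genes were higher and 25.3% were lower. Of the 7 counted at 24 h, without Arg1, 2 were higher and 4 were lower, against 39.5% higher and 14.9% lower among all tested genes. Without the third LPS+4-OHE1 library of 6 h, the log2 difference from LPS at 6 h was -4.42 for Nos2, -3.73 for Slc7a2, 1.91 for Odc1 and -0.37 for Gch1, all still called, and 0.06 for Ass1. Arg1 was not tested at 6 h, because no library reached 1 FPKM. At 24 h it passed the filter only through its LPS libraries, so it had to differ. It is therefore left out of the counts of the 24 h comparisons and of those between times, and its reads describe it.

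**Figure D1:**
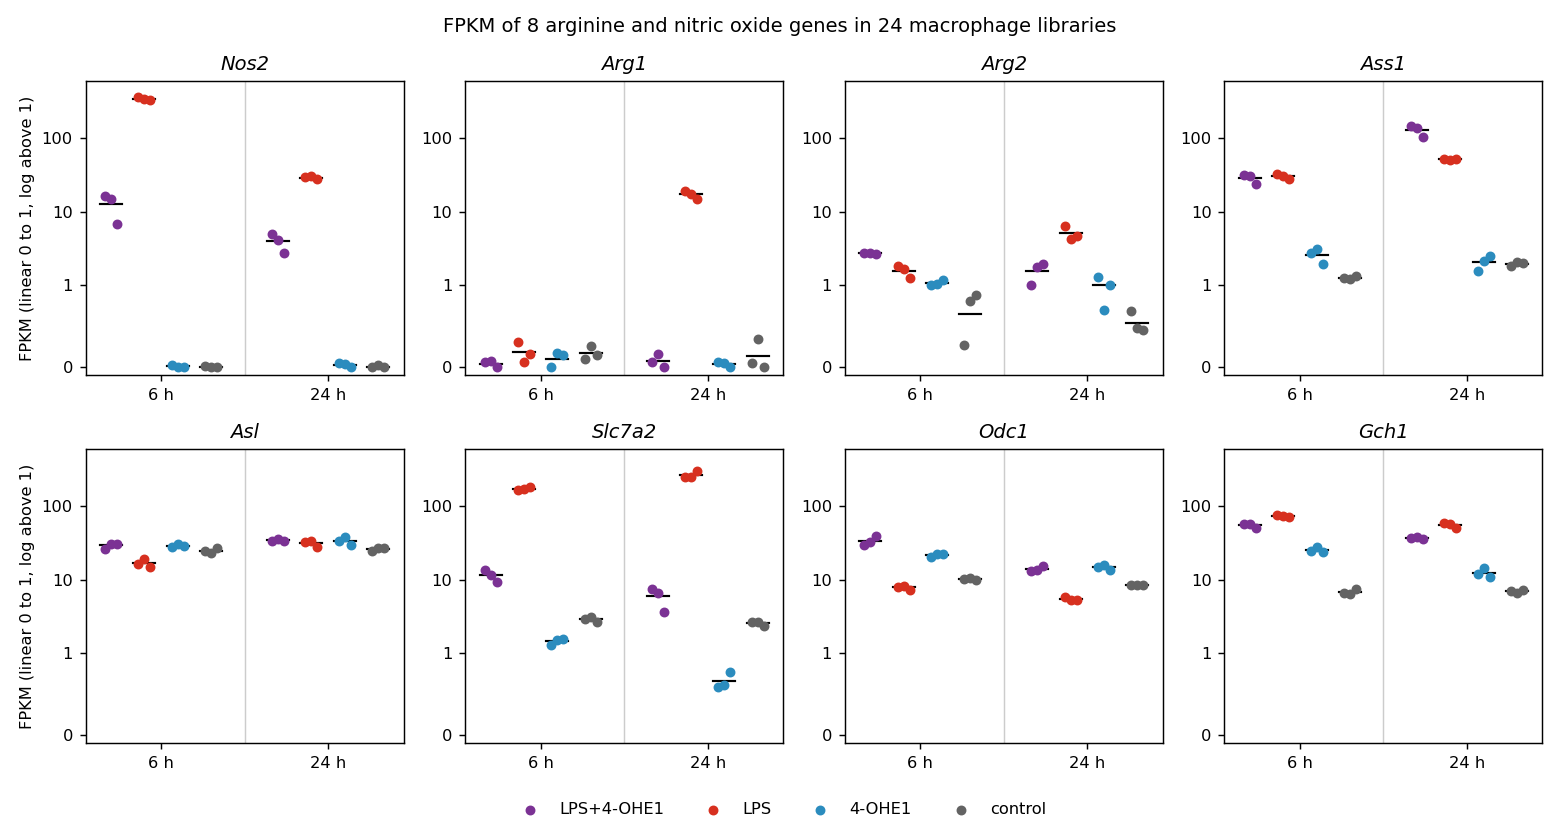
Level of each of the 8 genes in FPKM (y axis, linear from 0 to 1 and logarithmic above 1) in 4 treatments at 6 h and 24 h. Points are single libraries and bars are group means; Nos2, Slc7a2 and, at 24 h, Arg1 stand high in LPS libraries and low in LPS+4-OHE1 libraries.

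**Figure D2:**
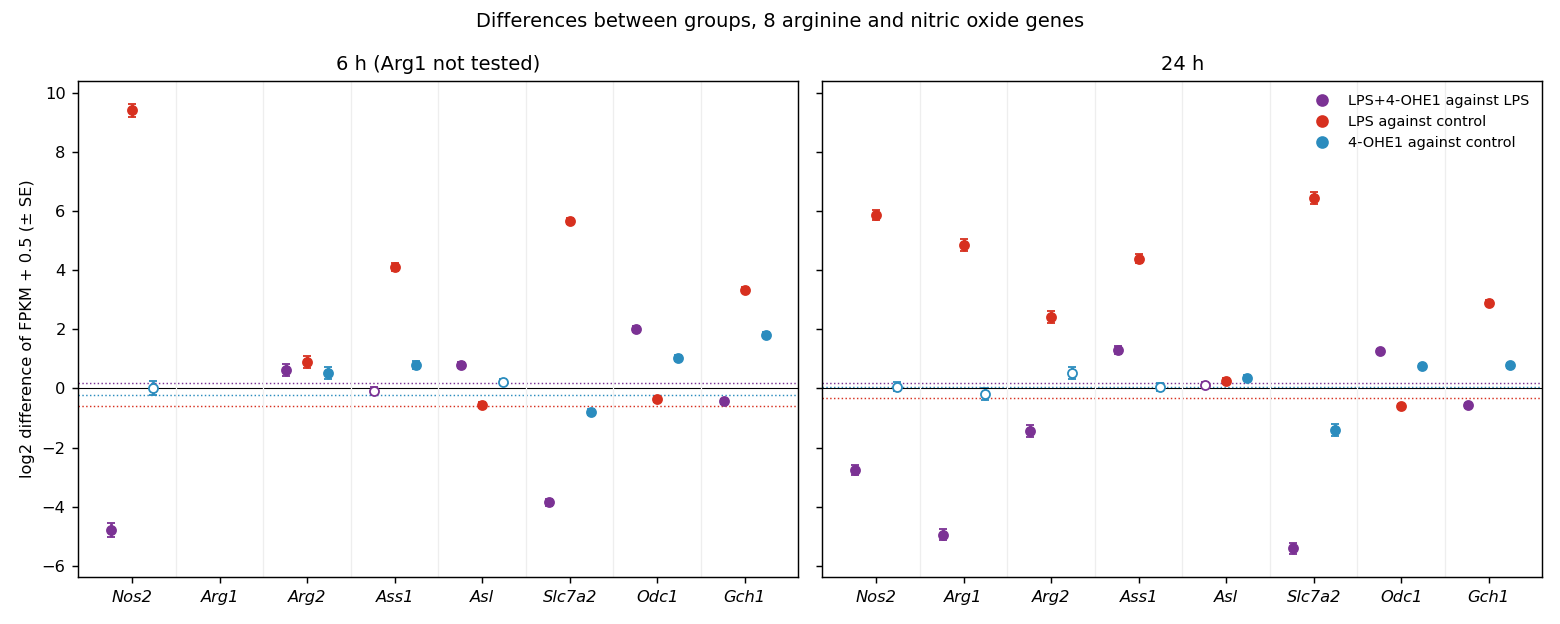
Log2 differences of FPKM + 0.5 (y axis) with SE for 3 comparisons at each time. Filled points passed the test, open points did not, and dotted lines are the medians of all tested genes in the same colours; the LPS+4-OHE1 against LPS difference was -4.80 for Nos2 and 2.02 for Odc1 at 6 h.

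Nos2 (chr11:78925291-78960226 in mm10, plus strand) was almost absent without LPS and abundant 6 h after it. In these bulk samples, more cells with a transcript and more of it per cell cannot be told apart. At 6 h its level was 16.4, 15.1 and 6.88 FPKM in LPS+4-OHE1 libraries, 360, 345 and 335 FPKM in LPS libraries, and at most 0.0290 FPKM in 4-OHE1 and 0.0200 FPKM in control libraries. The groups with LPS did not overlap each other or the groups without it, and the lowest LPS+4-OHE1 library was the third, the one that stood apart. LPS+4-OHE1 libraries averaged 3.69% of the LPS mean, a log2 difference of -4.80 ± 0.23 (adjusted p = 1.79e-09). After 24 h Nos2 stood at 4.96, 4.21 and 2.77 FPKM in LPS+4-OHE1 libraries and at 29.5, 30.8 and 27.6 FPKM in LPS libraries. The LPS+4-OHE1 mean was then 13.6% of the LPS mean, with a log2 difference of -2.76 ± 0.16 (adjusted p = 2.30e-08), and the groups again did not overlap. Whole reads could be recovered from the FPKM steps, which gives a fold against the nearly empty controls: at 6 h there were 38113 reads over the LPS libraries and 1 over the control libraries. Scaled for depth that is a ratio of 43008, with an exact 95% interval for counting error only of 7719 to 1698759. At 24 h the ratio was 3832 (interval 687 to 151380), from 3418 reads in LPS libraries and 1 in control libraries. LPS+4-OHE1 still exceeded 4-OHE1 alone, with 1483 reads against 1 at 6 h and 498 reads against 4 at 24 h. With 4-OHE1 alone, 1 read at 6 h and 4 at 24 h stood against 1 read in the control libraries of each time.

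Gch1 (chr14:47153895-47189402, minus strand) was raised by LPS and by 4-OHE1 on its own. At 6 h it stood at 57.2, 57.4 and 49.9 FPKM in LPS+4-OHE1 libraries, 76.9, 74.3 and 71.9 FPKM in LPS libraries, 24.6, 27.7 and 23.7 FPKM in 4-OHE1 libraries, and 6.68, 6.41 and 7.40 FPKM in control libraries. The 4 groups did not overlap, and LPS libraries were the highest. The log2 difference was -0.44 ± 0.08 for LPS+4-OHE1 against LPS (adjusted p = 3.16e-04), 3.35 ± 0.08 for LPS against control (adjusted p = 2.41e-12) and 1.82 ± 0.08 for 4-OHE1 against control (adjusted p = 1.80e-09). At 24 h the order of the groups was the same, at 37.2 ± 1.69, 55.4 ± 3.69, 12.4 ± 1.76 and 6.96 ± 0.290 FPKM for LPS+4-OHE1, LPS, 4-OHE1 and control (mean ± SD, n = 3 each). The LPS+4-OHE1 libraries thus held 73.7% of the LPS mean at 6 h and 67.0% at 24 h, a larger share than for Nos2. Since 4-OHE1 alone also raised Gch1, this share does not measure how much of the LPS difference was kept. LPS+4-OHE1 exceeded 4-OHE1 alone by 1.10 ± 0.08 at 6 h (adjusted p = 3.62e-07) and 1.56 ± 0.09 at 24 h (adjusted p = 2.78e-08). Both were smaller than the LPS differences from control, 3.35 at 6 h and 2.91 at 24 h. At 24 h the log2 difference from LPS was -0.57 ± 0.09 (adjusted p = 1.68e-04).

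Slc7a2 (chr8:40862367-40922070, plus strand) was the most abundant of the 8 genes per length in the LPS libraries of 24 h. At 6 h Slc7a2 had 13.6, 11.7 and 9.36 FPKM in LPS+4-OHE1 libraries, 168, 170 and 183 FPKM in LPS libraries, 1.31, 1.50 and 1.56 FPKM in 4-OHE1 libraries, and 2.93, 3.14 and 2.67 FPKM in control libraries. By 24 h Slc7a2 had 7.58, 6.69 and 3.60 FPKM in LPS+4-OHE1 libraries, 253, 247 and 300 FPKM in LPS libraries, 0.589, 0.615 and 0.770 FPKM in 4-OHE1 libraries, and 2.67, 2.67 and 2.33 FPKM in control libraries. The 4 groups were apart at both times, and 4-OHE1 alone lay below control. LPS+4-OHE1 libraries held 6.67% of the LPS mean at 6 h and 2.24% at 24 h, log2 differences of -3.86 ± 0.11 (adjusted p = 3.14e-11) and -5.42 ± 0.20 (adjusted p = 5.78e-10). Against control, LPS raised it by 5.67 ± 0.11 at 6 h (adjusted p = 7.38e-13) and 6.44 ± 0.20 at 24 h (adjusted p = 1.89e-11) on the log2 scale. With 4-OHE1 alone it fell by 0.80 ± 0.11 at 6 h (adjusted p = 5.56e-05) and by 1.40 ± 0.20 at 24 h (adjusted p = 7.70e-05). A long noncoding gene, Gm26584, shares 635 bases with Slc7a2 exons on the other strand in GENCODE vM21, and whether counting used strand is not given in the sources used here.

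A second arginine transporter moved the opposite way. Slc7a1, a transporter of the same family that many cell types use for arginine, averaged 42.5 ± 1.18 FPKM in LPS+4-OHE1, 11.3 ± 0.166 in LPS, 45.6 ± 1.90 in 4-OHE1 and 20.0 ± 0.111 in control libraries at 6 h (SD, n = 3 each). LPS+4-OHE1 exceeded LPS by 1.86 ± 0.05 at 6 h (adjusted p = 1.96e-11) and 0.72 ± 0.06 at 24 h (adjusted p = 1.30e-06). The ratio of Slc7a2 to Slc7a1 in FPKM was 0.213 to 0.327 in LPS+4-OHE1, 14.7 to 16.3 in LPS, 0.0287 to 0.0344 in 4-OHE1 and 0.133 to 0.158 in control libraries at 6 h. The 24 h ratio was 0.279 to 0.546, 30.9 to 40.3, 0.0324 to 0.0460 and 0.131 to 0.145 in the same order of groups. Slc7a2 was thus the larger of the pair in LPS libraries, and Slc7a1 was the larger in the other 3 treatments at both times.

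**Figure D3:**
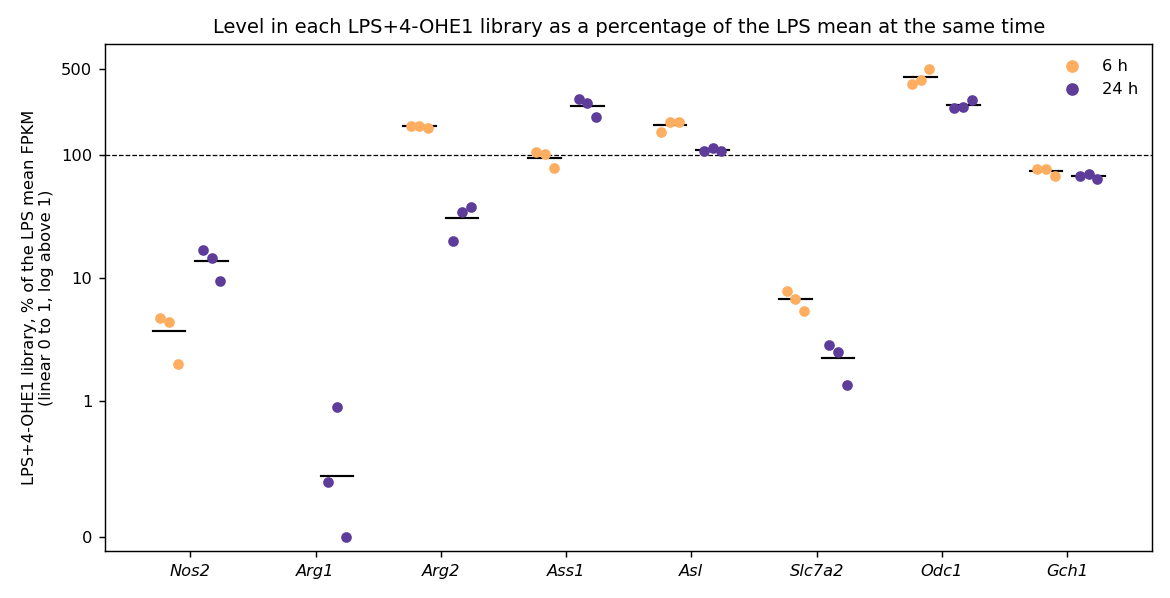
Level of each gene in each LPS+4-OHE1 library as a percentage of the mean FPKM of the LPS libraries of the same time (y axis, linear from 0 to 1 and logarithmic above 1). Points are libraries, bars are means and the dashed line is 100%; Arg1 at 6 h is left out because both groups were near 0, and means run from 0.452% for Arg1 at 24 h to 427% for Odc1 at 6 h.

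Ass1 (chr2:31470270-31520670, plus strand) encodes the first of the 2 enzymes that remake arginine. At 24 h it was the only member of the nitric oxide arm called above its LPS level in LPS+4-OHE1 libraries. Ass1 at 6 h stood at 31.9, 31.1 and 23.6 FPKM in LPS+4-OHE1 libraries, 32.3, 30.5 and 28.2 FPKM in LPS libraries, 2.72, 3.13 and 1.96 FPKM in 4-OHE1 libraries, and 1.26, 1.24 and 1.33 FPKM in control libraries. The 2 groups with LPS overlapped, and both were far above the groups without it. By 24 h Ass1 stood at 148, 137 and 105 FPKM in LPS+4-OHE1 libraries, 52.6, 50.5 and 51.7 FPKM in LPS libraries, 1.57, 2.13 and 2.52 FPKM in 4-OHE1 libraries, and 1.81, 2.11 and 2.0 FPKM in control libraries. Every LPS+4-OHE1 library was now above every LPS library, the third again being the lowest of its group. The log2 difference of LPS+4-OHE1 from LPS was -0.08 ± 0.14 at 6 h (adjusted p = 0.625) and 1.31 ± 0.14 at 24 h (adjusted p = 5.75e-06). LPS against control gave 4.12 ± 0.14 at 6 h (adjusted p = 5.68e-11) and 4.40 ± 0.14 at 24 h (adjusted p = 2.31e-11). By voom on the recovered reads the 6 h difference between LPS+4-OHE1 and LPS was -0.32 ± 0.11 and passed (adjusted p = 0.0210).

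Per length, Ass1 was below Nos2 in LPS libraries at 6 h, with ratios of 0.0843 to 0.0899, and above it in LPS+4-OHE1 libraries, with ratios of 1.94 to 3.43. At 24 h the ratio of Ass1 to Nos2 was 29.8 to 38.0 in LPS+4-OHE1 and 1.64 to 1.87 in LPS libraries. Both groups therefore held more Ass1 than Nos2 RNA per length at 24 h, and the LPS+4-OHE1 ratio lay far above the LPS ratio at both times.

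Asl (chr5:130011503-130024331, minus strand), the second enzyme of that pair, varied least of the genes that passed the filter, with group means between 16.8 and 34.4 FPKM. Its 6 h levels were 26.1, 30.9 and 30.9 FPKM in LPS+4-OHE1, 16.4, 19.2 and 14.7 FPKM in LPS, 27.5, 30.6 and 28.9 FPKM in 4-OHE1 and 24.2, 23.2 and 26.8 FPKM in control libraries. LPS libraries were the lowest, and LPS+4-OHE1 libraries were above them by 0.79 ± 0.10 on the log2 scale (adjusted p = 1.58e-05). LPS differed from control by -0.55 ± 0.10 unscaled (adjusted p = 2.13e-04), but at 0.12 ± 0.09 with median-of-ratios scaling (adjusted p = 0.266), so the direction of that difference depended on scaling. At 24 h Asl had 34.0, 35.4 and 33.9 FPKM in LPS+4-OHE1 libraries and 32.7, 33.7 and 27.9 FPKM in LPS libraries. The groups lay next to each other without overlap, and their log2 difference of 0.13 ± 0.09 did not pass the test (adjusted p = 0.220). LPS was then above control by 0.26 ± 0.09 (adjusted p = 0.0177), a call that was lost without the first control library or the first or second LPS library (adjusted p 0.0620 to 0.0715). The ratio of Ass1 to Asl was 3.11 to 4.35 in LPS+4-OHE1, 1.50 to 1.85 in LPS, 0.0466 to 0.0844 in 4-OHE1 and 0.0739 to 0.0788 in control libraries at 24 h.

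Arg1 (chr10:24915207-24927470, minus strand) was abundant in 1 group only, LPS at 24 h. At 6 h no library exceeded 0.314 FPKM. By 24 h Arg1 had 0.0700, 0.165 and 0 FPKM in LPS+4-OHE1 libraries, 19.0, 17.8 and 15.2 FPKM in LPS libraries, 0.0590, 0.0560 and 0 FPKM in 4-OHE1 libraries, and 0.0510, 0.349 and 0 FPKM in control libraries. The LPS libraries stood alone, and the other 3 groups overlapped. One read was worth 0.0511 to 0.0839 FPKM for this gene, so the low values stand for a few reads. Summed over libraries there were 4 reads in LPS+4-OHE1, 784 in LPS, 2 in 4-OHE1 and 7 in control. The depth-scaled ratio of LPS+4-OHE1 to LPS was 0.00470 (exact 95% interval 0.00128 to 0.0121), and that of LPS to control was 126 (interval 60.6 to 313). In the LPS libraries of 24 h, Nos2 and Arg1 were present side by side, at 1.55 to 1.82 times as much Nos2 as Arg1 per length. Human neutrophils are known to store arginase 1. The summed level of 7 neutrophil markers was 1.19 to 1.43 FPKM in LPS+4-OHE1, 4.14 to 7.32 FPKM in LPS, 1.33 to 2.43 FPKM in 4-OHE1 and 0.482 to 1.30 FPKM in control libraries at 24 h. Among them Elane and Ltf were at 0 in LPS libraries, Ly6g did not exceed a group mean of 0.0413 FPKM, and Camp reached 4.84 FPKM. The part of such cells in the Arg1 level was not tested.

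Arg2 (chr12:79130788-79156301, plus strand) was low throughout, and its difference between LPS+4-OHE1 and LPS changed sign with time. Its 6 h levels were 2.76, 2.75 and 2.66 FPKM in LPS+4-OHE1, 1.83, 1.68 and 1.28 FPKM in LPS, 1.01, 1.05 and 1.20 FPKM in 4-OHE1 and 0.268, 0.810 and 0.881 FPKM in control libraries. The 4 groups did not overlap at 6 h and LPS+4-OHE1 was the highest. Its 24 h levels were 1.02, 1.77 and 1.93 FPKM in LPS+4-OHE1, 6.43, 4.30 and 4.68 FPKM in LPS, 1.30, 0.697 and 1.02 FPKM in 4-OHE1 and 0.693, 0.485 and 0.459 FPKM in control libraries. LPS libraries were now the highest, and LPS+4-OHE1 overlapped 4-OHE1. The log2 difference of LPS+4-OHE1 from LPS was 0.63 ± 0.20 at 6 h (adjusted p = 0.0135) and -1.45 ± 0.21 at 24 h (adjusted p = 9.72e-05). The 6 h call was lost without the third LPS library (0.51, adjusted p = 0.0607) and by voom on recovered reads (0.52, adjusted p = 0.0933). These levels rest on 118 reads in LPS+4-OHE1 and 66 in LPS over 3 libraries at 6 h, and on 75 and 220 at 24 h. In GENCODE vM21, 285 exon bases of Arg2 overlap Vti1b on the other strand and 116 overlap Gm48780. Vti1b is a gene at 25.7 to 58.6 FPKM in these libraries, so reads of the pair may have been mixed and Arg2 is uncertain. Vti1b differed between LPS+4-OHE1 and LPS by -0.12 ± 0.07 at 6 h (adjusted p = 0.139) and 0.03 ± 0.07 at 24 h (adjusted p = 0.685), and with scaling by -0.34 ± 0.08 at 6 h (adjusted p = 0.00203). Against control, unscaled, Vti1b was called with LPS (-0.37 ± 0.07 at 6 h, 0.24 ± 0.07 at 24 h) and with 4-OHE1 (-0.26 ± 0.07, 0.41 ± 0.07). With scaling these 6 h values were 0.30 ± 0.08 for LPS and -0.09 ± 0.08 for 4-OHE1. Its interaction at 24 h was -0.38 ± 0.09 unscaled. The ratio of Arg1 to Arg2 in LPS libraries was 0.0416 to 0.171 at 6 h and 2.96 to 4.13 at 24 h.

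Odc1 (chr12:17544873-17551502, plus strand), which starts the path to polyamines, was highest where 4-OHE1 was present. Odc1 at 6 h stood at 29.5, 32.2 and 39.2 FPKM in LPS+4-OHE1, 8.06, 8.33 and 7.23 FPKM in LPS, 20.2, 22.4 and 22.4 FPKM in 4-OHE1 and 10.3, 10.6 and 9.92 FPKM in control libraries. The groups were apart, and the highest library was the third of LPS+4-OHE1. Odc1 at 24 h stood at 13.2, 13.5 and 15.5 FPKM in LPS+4-OHE1, 5.87, 5.28 and 5.38 FPKM in LPS, 15.0, 15.8 and 13.5 FPKM in 4-OHE1 and 8.58, 8.58 and 8.41 FPKM in control libraries. Both groups with 4-OHE1 overlapped each other at 24 h and lay above both groups without it. LPS+4-OHE1 exceeded LPS by 2.02 ± 0.10 at 6 h (adjusted p = 1.63e-09) and by 1.27 ± 0.08 at 24 h (adjusted p = 4.53e-08). With 4-OHE1 alone it rose by 1.04 ± 0.10 at 6 h (adjusted p = 1.37e-06) and by 0.76 ± 0.08 at 24 h (adjusted p = 6.36e-06). The LPS difference at 6 h changed direction with scaling: it was -0.36 ± 0.10 unscaled (adjusted p = 0.00354), 0.29 ± 0.08 with median-of-ratios scaling (adjusted p = 0.00834) and 0.30 in the authors' deposited table (adjusted p = 0.0322). At 24 h LPS against control was -0.59 ± 0.08 unscaled (adjusted p = 1.99e-05) and -0.26 ± 0.08 scaled (adjusted p = 0.0110), while the authors' deposited table had -0.27 (adjusted p = 0.105).

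With 4-OHE1 alone the genes of nitric oxide synthesis did not move as one. Gch1, Odc1 and Ass1 rose and Slc7a2 fell at 6 h, while Nos2 gave 0.01 ± 0.23 (adjusted p = 0.979). Of the 7 genes tested at 6 h, 4 were higher and 1 was lower than control, where 20.9% of all tested genes were higher and 44.0% were lower. The fourth was Arg2, at 0.51 ± 0.20 (adjusted p = 0.0400). It was 0.24 without the first control library (adjusted p = 0.182). It was also lost without any 1 of the 4-OHE1 libraries, the second LPS library or the second LPS+4-OHE1 library, without a filter, in a fit of these groups only, and in the authors' deposited table (1.00, adjusted p = 0.142). Ass1 rose by 0.79 ± 0.14 (adjusted p = 3.53e-04), and Asl was at 0.23 ± 0.10 unscaled (adjusted p = 0.0623) and 0.40 ± 0.09 scaled (adjusted p = 0.00242). At 24 h 3 of 7 were higher (Asl, Odc1 and Gch1) and 1 was lower (Slc7a2), against 29.9% and 23.1% of all tested genes. Gch1 was at 0.78 ± 0.09 (adjusted p = 1.48e-05), Asl at 0.36 ± 0.09 (adjusted p = 0.00445) and Ass1 at 0.04 ± 0.14 (adjusted p = 0.829).

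LPS alone raised Nos2, Slc7a2, Ass1, Gch1 and Arg2 at both times. At 6 h 5 of the 7 tested genes were higher and 2 were lower than control unscaled, against 16.1% higher and 68.1% lower among all tested genes, and with scaling 6 were higher and 0 lower. At 24 h 6 of 7 were higher and 1, Odc1, was lower, against 19.9% and 53.5%. These counts include Nos2, which passed the filter only through the groups with LPS. Its call against groups without LPS was bound to follow, and its reads above describe that difference. Arg2 was at 0.90 ± 0.20 at 6 h (adjusted p = 0.001) and 2.42 ± 0.21 at 24 h (adjusted p = 4.08e-07). Gch1 was at 2.91 ± 0.09 at 24 h (adjusted p = 1.96e-11). Comparisons with LPS libraries on one side and with control libraries on the other share libraries, so their values are given side by side only.

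Slc7a2, Ass1 and Gch1 were higher with LPS at both times also when 4-OHE1 was present. LPS+4-OHE1 exceeded 4-OHE1 alone for 6 of the 7 tested genes at 6 h, against 10.1% higher and 50.2% lower among all tested genes, and for 4 of 7 at 24 h, against 12% and 44.3%. At 24 h the 4 were Nos2, Slc7a2, Ass1 and Gch1. Nos2 was counted at both times, although its call against 4-OHE1 alone was bound to follow from the filter. On the scale of FPKM + 0.5, Ass1 had the largest difference of the 7 at 24 h, at 5.67 ± 0.14 (adjusted p = 1.86e-11). Nos2 had only 4 reads with 4-OHE1 alone, and the pseudocount lowers its difference on that scale. By recovered reads at 24 h, the depth-scaled ratio of LPS+4-OHE1 to 4-OHE1 was 133 for Nos2 (interval for counting error 51.6 to 490). For Ass1 the ratio was 62.3 (interval 52.0 to 75.3), and the intervals overlapped, so the reads do not rank these genes. Odc1 was at 0.61 ± 0.10 at 6 h (adjusted p = 2.22e-04) and -0.07 ± 0.08 at 24 h (adjusted p = 0.467). With scaling, Asl was also higher at both times (0.29 ± 0.09, adjusted p = 0.0264, and 0.27 ± 0.09, adjusted p = 0.0250) and Arg2 at 24 h (0.60 ± 0.21, adjusted p = 0.0371).

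The interaction asks whether the LPS difference changed size when 4-OHE1 was present. Of 7 tested genes at 6 h, 2 were called upward and 4 downward, against 45.5% upward and 15.2% downward among all tested genes. Downward, the interaction was -4.80 ± 0.33 for Nos2 (adjusted p = 1.40e-07), -3.06 ± 0.16 for Slc7a2 (adjusted p = 1.85e-08), -2.26 ± 0.11 for Gch1 (adjusted p = 1.07e-08) and, for Ass1, -0.87 ± 0.20 (adjusted p = 0.00247). By voom on recovered reads the Nos2 interaction was -5.52 and did not pass (adjusted p = 0.0583). Nos2 is counted at both times, although it passed the filter only through the groups with LPS. It was near 0 without LPS, so its interaction mostly restates its difference between LPS+4-OHE1 and LPS. In recovered reads at 6 h, the LPS ratio was 43008 without 4-OHE1 (interval 7719 to 1698759) and 1286 with it (interval 231 to 50843). These intervals overlapped, so the reads do not show a changed LPS ratio at 6 h. At 24 h they did not overlap (687 to 151380 and 51.6 to 490). Upward, Odc1 was at 0.98 ± 0.14 (adjusted p = 5.58e-05), and Asl was at 0.56 ± 0.14 unscaled (adjusted p = 0.00430) and 0.17 ± 0.13 scaled (adjusted p = 0.296). Of 7 at 24 h, 2 were upward and 4 downward, against 27.6% and 15.7%. Ass1 was now upward, at 1.27 ± 0.19 (adjusted p = 1.92e-04), with Odc1 at 0.52 ± 0.11 (adjusted p = 0.00219). Nos2 was at -2.82 ± 0.22 (adjusted p = 6.55e-07), Slc7a2 at -4.02 ± 0.28 (adjusted p = 2.23e-07) and Gch1 at -1.35 ± 0.13 (adjusted p = 2.91e-06). Arg2 was at -1.97 ± 0.30 (adjusted p = 1.84e-04), and Asl, at -0.22 ± 0.12 unscaled (adjusted p = 0.169), was at -0.34 ± 0.12 with scaling (adjusted p = 0.0377).

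Between 24 h and 6 h several of these differences changed size. Of the 7 genes other than Arg1, 2 had a higher and 4 a lower LPS+4-OHE1 against LPS difference at 24 h than at 6 h, against 25.5% and 25.7% of all tested genes. Nos2 (2.03 ± 0.29, adjusted p = 7.16e-06) and Ass1 (1.39 ± 0.21, adjusted p = 1.10e-05) were those that moved upward. For LPS against control 3 were higher and 2 lower, against 41.7% and 16.9%, and with scaling 2 were higher and 3 lower. Nos2 is among the lower ones, but it was near 0 in control libraries, so its value mostly follows its level in LPS libraries. For 4-OHE1 against control 0 were higher and 3 lower, against 37.0% and 16.6%, and with scaling Odc1 was lower as well, at -0.53 ± 0.11 (adjusted p = 7.62e-04) against -0.28 ± 0.12 unscaled (adjusted p = 0.0598).

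Lists of 57 other genes of arginine and ornithine use were made with earlier results of these data known, 54 were in the tables, and 35 passed the filter at 6 h and 36 at 24 h. At 6 h 25 of the 35 were above and 3 below their LPS level in LPS+4-OHE1 libraries, with a median of 0.67 against 0.18 for all tested genes. Of these, 22 and 3 were called under both scalings, where 32.1% and 25.3% of all tested genes were. In LPS against control at 6 h 4 were higher and 30 lower, where 68.1% of all tested genes were lower. Under both scalings 4 and 18 were called, against 16.1% and 35.1% of all tested genes, and the median was -0.97 against -0.61. At 24 h 17 of 36 were higher and 4 lower in LPS+4-OHE1 than in LPS, against 39.5% and 14.9% of all tested genes, and under both scalings 13 and 4, against 23.7% and 14.9%. In LPS against control at 24 h 5 were higher and 22 lower, against 19.9% and 53.5%, and under both scalings 5 and 18, against 19.9% and 33.9%. With 4-OHE1 alone 8 were higher and 13 lower than in control at 6 h, against 20.9% and 44.0%, and under both scalings 8 and 8, against 20.9% and 32.0%. At 24 h 9 were higher and 9 lower with 4-OHE1 alone, against 29.9% and 23.1%, and under both scalings 5 and 9, against 24.3% and 23.1%. Unscaled, the shares with 4-OHE1 alone were near those of all tested genes.

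**Figure D4:**
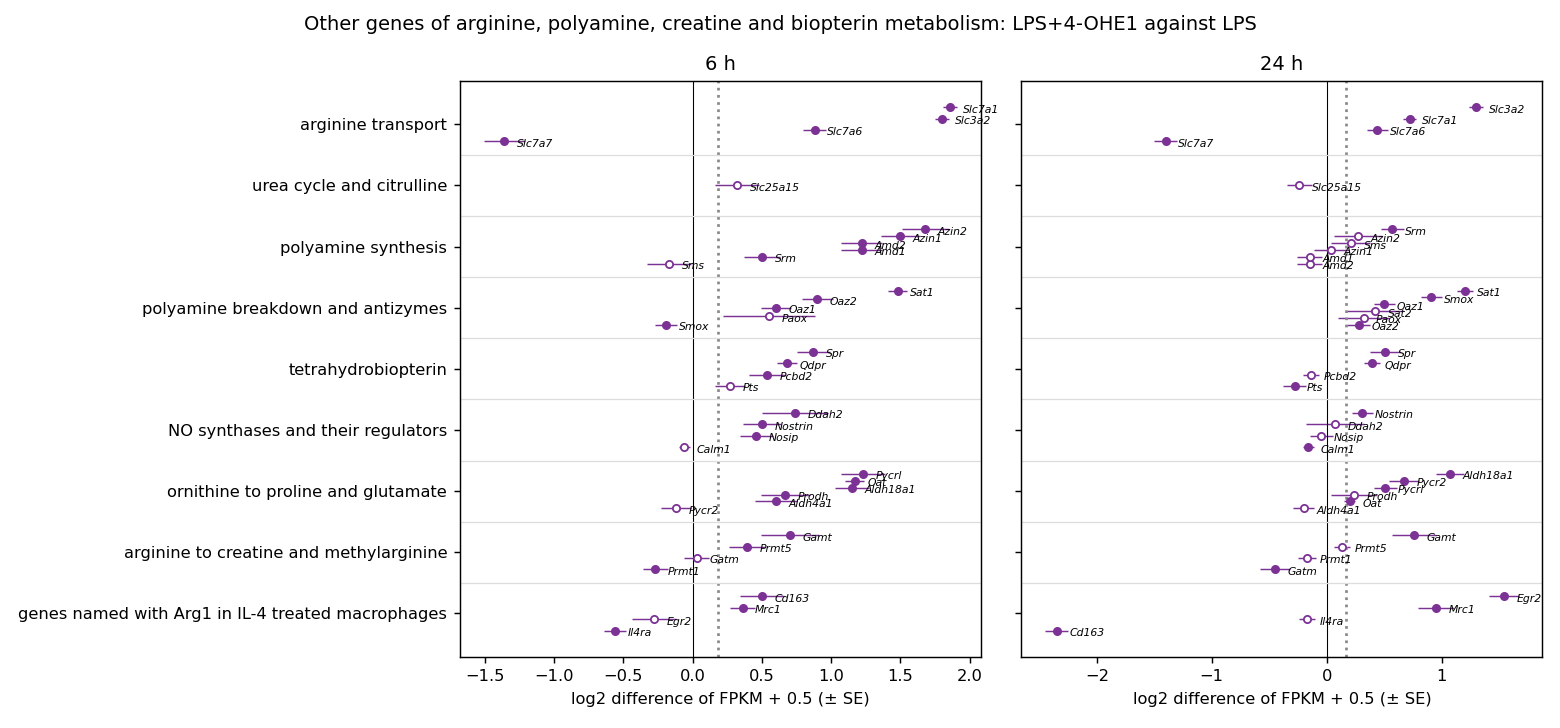
Log2 difference of FPKM + 0.5 between LPS+4-OHE1 and LPS (x axis) with SE for the tested genes of 9 lists (rows), other than 1 tetrahydrobiopterin gene, at 6 h and 24 h. Filled points passed the test and the dotted line is the median of all tested genes, 0.18 at 6 h and 0.17 at 24 h; Slc7a1, Slc3a2 and Sat1 lie above it at both times and Slc7a7 below.

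Among the 4 tested transporters, LPS+4-OHE1 exceeded LPS for 3 and lay below it for 1 at each time, also under both scalings. Of all tested genes, 42.7% were higher and 25.3% lower at 6 h, and 39.5% and 14.9% at 24 h. Under both scalings the shares were 32.1% and 25.3% at 6 h, and 23.7% and 14.9% at 24 h. Slc3a2, the heavy chain that carries several amino acid transporters to the membrane, averaged 802 ± 25.0 FPKM in LPS+4-OHE1 and 231 ± 2.45 FPKM in LPS libraries at 6 h, a log2 difference of 1.80 ± 0.05 (adjusted p = 2.31e-11). It was also higher with 4-OHE1 alone than in control libraries, at 2.55 ± 0.05 (adjusted p = 4.61e-12). Slc7a7, a light chain that pairs with it in exporting arginine, was lower, at -1.36 ± 0.15 at 6 h (adjusted p = 4.52e-06) and -1.40 ± 0.10 at 24 h (adjusted p = 1.52e-07).

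Polyamine synthesis genes other than Odc1 differed more between LPS+4-OHE1 and LPS at 6 h. Of 6 tested, 5 were called above and 0 below their LPS level in LPS+4-OHE1 libraries at 6 h, 4 of them under both scalings, and 1 and 0 at 24 h, where 42.7% of all tested genes were higher at 6 h and 39.5% at 24 h. For 4 of the 6 the difference was lower at 24 h than at 6 h and for 0 it was higher, against 25.7% and 25.5% of all tested genes. Azin1, which encodes an antizyme inhibitor that spares ornithine decarboxylase, was at 1.50 ± 0.14 at 6 h (adjusted p = 9.11e-07). Srm (spermidine synthase) was the one called at 24 h, at 0.57 ± 0.10 (adjusted p = 3.07e-04). Amd1 and Amd2 are near-identical copies whose reads may have been divided between them. Their means at 6 h were 3.74 and 3.75 FPKM in LPS+4-OHE1 and 1.33 and 1.34 FPKM in LPS libraries. The counts here and over all lists may therefore hold 1 measurement as 2 genes, and the pair is not read further. Of the breakdown genes and antizymes, 3 of 5 were higher and 1 lower at 6 h, against 42.7% and 25.3% of all tested genes, and 4 of 6 were higher at 24 h, 3 of them under both scalings, against 39.5% and 23.7%. Sat1, the acetyltransferase that starts polyamine breakdown, averaged 322 ± 22.4 FPKM in LPS+4-OHE1, 115 ± 4.34 in LPS, 265 ± 18.6 in 4-OHE1 and 53.9 ± 4.25 in control libraries at 6 h (SD, n = 3 each). Sat1 and Odc1 were thus both higher with 4-OHE1 added to LPS, at 1.48 ± 0.07 for Sat1 at 6 h (adjusted p = 2.44e-09) and 1.20 ± 0.07 at 24 h (adjusted p = 2.93e-08).

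Of 6 tested genes that link ornithine with proline and glutamate, 5 at 6 h and 4 at 24 h were higher with 4-OHE1 added to LPS, with 0 lower at either time, where 42.7% and 39.5% of all tested genes were higher. Under both scalings 5 and 3 were called, against 32.1% and 23.7%. Oat, ornithine aminotransferase, averaged 56.4 ± 4.64 FPKM in LPS+4-OHE1, 24.7 ± 1.97 in LPS, 64.2 ± 3.39 in 4-OHE1 and 42.8 ± 0.220 in control libraries at 6 h, with a log2 difference of 1.17 ± 0.07 from LPS (adjusted p = 2.03e-08). Of 5 other tetrahydrobiopterin genes tested, 0 rose and 5 fell with LPS at 6 h, where 68.1% of all tested genes fell. Under both scalings 2 of the 5 fell, a share near the 35.1% of all tested genes. LPS+4-OHE1 exceeded LPS at 6 h for 4 of them, also under both scalings, and lay below it for 0, against 42.7% and 25.3% of all tested genes. Spr (sepiapterin reductase, which completes the cofactor) gave -1.49 ± 0.12 for LPS against control (adjusted p = 8.98e-08) and 0.87 ± 0.12 for LPS+4-OHE1 against LPS at 6 h (adjusted p = 2.31e-05). None of the 4 subunit genes of the nitric oxide receptor in the tables passed the filter.

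Genes listed as named together with Arg1 in macrophages given IL-4, not all of which need be raised by it, moved in both directions at 24 h. Of 8 listed, 4 passed the filter, and in LPS+4-OHE1 against LPS 2 were higher and 1 was lower, where 39.5% and 14.9% of all tested genes were. Mrc1, the mannose receptor, averaged 2.40 ± 0.653 FPKM in LPS+4-OHE1, 0.976 ± 0.165 in LPS, 12.8 ± 2.17 in 4-OHE1 and 36.6 ± 2.29 in control libraries (SD, n = 3 each), so it was lowest where Arg1 was highest. Its log2 difference was 0.95 ± 0.16 for LPS+4-OHE1 against LPS (adjusted p = 2.46e-04) and -4.65 ± 0.16 for LPS against control (adjusted p = 4.32e-11). In LPS against control 1 of the 4 was higher and 1 was lower, where 19.9% and 53.5% of all tested genes were. The higher one was Il4ra, a receptor gene for IL-4, at 1.26 to 1.34 with any 1 library left out. Egr2, a transcription factor, averaged 7.00 ± 0.154 FPKM in LPS+4-OHE1 and 2.10 ± 0.371 FPKM in LPS libraries, a log2 difference of 1.54 ± 0.13 (adjusted p = 9.86e-07). Cd163, a scavenger receptor, went the way of Arg1 in this comparison, at -2.35 ± 0.10 (adjusted p = 3.02e-09).

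The patterns over the 24 libraries were compared with Pearson's r of log2(FPKM + 0.5) among 8379 other genes, as a description, since the 3 libraries of a group share their treatment. The closest to Nos2 were Nfkb2 (r = 0.992), Ccl22 (0.989), Ifi205 (0.988), Batf2 (0.987) and Mapkapk2 (0.987). Slc7a2 had an r of 0.91 with Nos2 and Gch1 one of 0.86, while Arg1 had 0.357 and Asl -0.49. The closest to Arg1 were Ly6i (0.982), Slamf6 (0.967), Thbs1 (0.965), Stfa3 (0.948) and Vnn3 (0.948), and Arg2 was the closest of the 8 at 0.71. Arg1 was near 0 outside the LPS libraries of 24 h, so its r mostly reflects how far a gene was high in that group alone. The closest to Gch1 were St3gal1 (0.978), Nfkbiz (0.976), Ahr (0.974), Ptgs2 (0.974) and Il1rn (0.971), and Nos2 was the closest of the 8 at 0.86.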

How the data were processed

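Bone marrow macrophages of mice gave 24 RNA libraries. Per the submitters' processing notes the authors used mm10, and STAR, HOMER, edgeR and DESeq2 are the tools named there; their versions are not given in the sources used here. The authors' FPKM values come from HOMER (file headers), with exon reads of 1 transcript for each gene normalised to that transcript's length and the library's depth. The authors' deposited tables of LPS or 4-OHE1 against control give a log2 fold change and an adjusted p-value for each gene, used only as an alternative.

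Depth was 8127155 to 13339193 reads per library, 83.0% to 87.2% of them in genes. FPKM steps gave whole reads within 0.1 read. Depths came from file headers except in the LPS+4-OHE1 libraries, where they were themselves inferred from the FPKM steps. For those libraries whole reads are therefore no separate check of the depth. Limma 3.58.1 in R 4.3.3 was run on log2(FPKM + 0.5), with a trend, for every gene reaching 1 FPKM in 3 libraries or more, in 1 fit per time and, for differences between times, in 1 fit of all 24 libraries, with Benjamini-Hochberg adjustment over all tested genes. The method was also run on simulated data in which most genes did not change, unlike LPS against control at 6 h. That run therefore does not check the unscaled calls of such comparisons. The pseudocount understates the change of low genes. Ratios of recovered reads carry exact Clopper-Pearson 95% intervals for counting error only. The 8 genes, the lists of related genes and the tests were chosen with earlier results of these data known. Genes named from the lists are among the called ones with the largest differences in a comparison, up to 3 per list, and the genes closest in pattern to Nos2, Arg1 and Gch1 are the first 5. The values of 1 cell type marker and of 1 list gene are not reported here; counts over the lists of related genes include that list gene. The libraries of a group differed by more than counting noise, with a chi-square over its degrees of freedom of 1.44 to 15.8 for each pair. Each library was entered as 1 sample in the tests, and whether this spread is technical is not known.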

Additional observations from a re-analysis of the deposited data

Results flagged for a closer look

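The treatment differences of the 7 genes other than Arg1 were compared between 24 h and 6 h in 1 fit of all 24 libraries (limma, Benjamini-Hochberg), and 14 of these differences of differences passed the test. A value above 0 means a higher log2 difference at 24 h. For LPS+4-OHE1 against LPS 6 of 7 passed, 2 upward and 4 downward, where 25.5% of all tested genes were upward and 25.7% downward. Nos2 was at 2.03 (adjusted p = 7.16e-06) and Ass1 at 1.39 (adjusted p = 1.10e-05). Arg2 was at -2.08, Slc7a2 at -1.56, Odc1 at -0.75 and Asl at -0.66 (adjusted p 7.16e-06 to 4.73e-04).

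For LPS against control 5 of 7 passed, 3 upward and 2 downward, against 41.7% and 16.9% of all tested genes. Arg2 was at 1.52, Asl at 0.81 and Slc7a2 at 0.77 (adjusted p 4.05e-05 to 0.00949), while Nos2 was at -3.55 (adjusted p = 2.83e-09) and Gch1 at -0.45 (adjusted p = 0.00341). Nos2 passed the filter only through the groups with LPS and was near 0 in control libraries. Its value mostly restates the fall of its LPS mean from 347 FPKM at 6 h to 29.3 FPKM at 24 h. The intervals of its read ratio to control overlapped between 6 h (7719 to 1698759) and 24 h (687 to 151380). A smaller LPS ratio at 24 h is therefore not shown by the reads. With scaling Slc7a2 was at 0.44 (adjusted p = 0.150) and Odc1 passed at -0.54 (adjusted p = 4.80e-04).

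For 4-OHE1 against control 0 were upward and 3 downward, against 37.0% and 16.6% of all tested genes. Gch1 was at -1.04 (adjusted p = 5.87e-07), Ass1 at -0.75 (adjusted p = 0.00487) and Slc7a2 at -0.60 (adjusted p = 0.0428). With scaling Odc1 also passed, at -0.53 (adjusted p = 7.62e-04). The Slc7a2 value lay between -0.60 and -0.55 and did not pass (adjusted p 0.0640 to 0.0884) without control library 1 or 3 or 4-OHE1 library 2 or 3 of 6 h, or without control library 1 or 2 or 4-OHE1 library 1 or 2 of 24 h. By voom on recovered reads the LPS value of Nos2 (-3.77, adjusted p = 0.117) and the 4-OHE1 value of Ass1 (-1.18, adjusted p = 0.0771) did not pass. Arg1 passed the filter only through its LPS libraries of 24 h, so that it had to differ and its differences between times are not counted.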

How the results depend on the processing

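Counts of called genes among the 8, with and without Arg1, stayed within 1.5 times the reported count in each of 13 comparisons, wherever the alternative gave one, under pseudocounts of 0.1 and 1, a mean of 5 FPKM or no filter, scaling, robust empirical Bayes, the replicate block, fits of 2 groups, voom on recovered reads, the authors' deposited tables, and each library left out. Directions turned in 2 results, both of LPS against control at 6 h: Asl was 0.12 scaled, 0.13 by voom on recovered reads and 0.13 in the authors' deposited table, and Odc1 was 0.29 scaled, 0.31 by voom and 0.30 in the authors' deposited table. Deviations of libraries of the same replicate number from their group means had r from -0.14 to 0.27 (36 pairs, 2 over 0.1). Between different numbers r was -0.31 to 0.20 (72 pairs). The 2 over 0.1 were both between LPS and 4-OHE1 at 24 h. Taken from means of 3 libraries, these values do not decide whether the numbers mark pairs. With the replicate block Arg2 in 4-OHE1 against control at 6 h (0.51, adjusted p = 0.0541) and the time difference of Slc7a2 with 4-OHE1 (-0.60, adjusted p = 0.0614) did not pass, and no other call among the 8 changed. Scaling moved the number of all genes called in LPS+4-OHE1 against 4-OHE1 at 6 h to 4317, against 1125 higher and 5576 lower unscaled, and the list genes of arginine and ornithine use called there to 8, against 16. Those list genes were 9 by voom, and 10 and 9 without the first and the second 4-OHE1 library. Low reads limit Arg1 and Arg2 and, without LPS, Nos2.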
